A study of Triticum dicoccoides with 12 samples.

Results

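The root response of the wild emmer wheat genotype A24-39 to water stress was described from 6 of the 12 arrays of the series, 3 from stressed and 3 from well-watered plants, chosen by their titles. Wild emmer wheat (Triticum turgidum subsp. dicoccoides) is the tetraploid wild ancestor of cultivated wheats. Total RNA of roots was labelled with biotin and hybridised to the Affymetrix wheat genome array, whose probe sets each combine several short probes made from sequences of bread wheat. All plants were labelled as 4 weeks old and grown in a greenhouse. They stayed well-watered or, from the 4 leaf stage, were under water stress for 7 days. The other 6 arrays come from the genotype Y12-3 under the same waterings. From published work A24-39 is known as a drought-susceptible and Y12-3 as a drought-resistant accession, which the labels themselves do not state. The labels call the arrays biological replicates, without saying if RNA of single plants or pools was used. The p-values measure the spread between these arrays.

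Roots are the organ that meets drying soil first. As a plant loses water, the hormone abscisic acid accumulates and induces protective proteins such as dehydrins and other late embryogenesis abundant proteins, while many transcripts of growth and primary metabolism decline. Sucrose arriving from the shoot is split in the root by sucrose synthase and invertases, which feed both cell walls and respiration. In bulk root RNA, fewer cells of a type and less RNA per cell cannot be told apart.

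The deposited values are on a log-like scale of unstated base, with array means close to 0. Differences are stressed minus well-watered in these units. A group mean carries its SD over 3 arrays, and a difference carries the moderated SE of limma. A probe set was called changed at a limma adjusted p under 0.05 over the 61179 probe sets that are not array controls. Background on each array was the brightest of 23 control probe sets that have no target in wheat. This limit lay between -0.15 and -0.06 on the well-watered and between -0.19 and -0.14 on the stressed A24-39 arrays, and 33.0% to 39.4% of the probe sets lay above it. A probe set is called detected on an array where it exceeds that limit. Its level is a signal and no measure of abundance across different probe sets, since probes differ in response.

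The third well-watered array stood apart from the other two. It correlated at a mean of 0.970 with them, while the other A24-39 arrays correlated with their group at 0.979 to 0.987. On 235 probe sets it differed by at least 1 unit from the mean of the other two, against 41 and 81 for the first and the second well-watered array and 29, 41 and 92 for the stressed ones. Counts without it are given beside the results that it moved by over 1.5 times. For dap, a bacterial control transcript, the signal at the 3′ end minus that at the 5′ end was 1.30, 1.06 and 1.10 on the well-watered and 0.89, 0.95 and 1.01 on the stressed arrays. The groups did not overlap (p = 0.1 in a two-sided exact permutation test, where 3 against 3 arrays cannot go lower). In Y12-3 the values were 1.36, 1.36 and 1.02 on the well-watered and 0.87, 0.80 and 0.87 on the stressed arrays. Every well-watered array of both genotypes thus lay above every stressed one, so watering and this difference cannot be told apart. With this difference as a covariate, limma called 5489 probe sets in place of the 6541 below.

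Between stressed and well-watered A24-39 roots 6541 probe sets were called changed, which is 10.7% of those tested. Of these, 3268 were higher (5.34% of those tested) and 3273 lower (5.35%) in stressed roots. The median call was a difference of 0.38 among the higher and of -0.51 among the lower ones. The median SD between replicate arrays over all probe sets, most of them near background, was 0.06 in well-watered and 0.04 in stressed roots. Brighter probe sets spread more. The median well-watered SD was 0.13 for well-watered means 0.5 to 1 above the limit and 0.20 for those over 3 above it. The count depended on the scaling and on single arrays. When each array was rescaled to bring its spike-in controls together, limma called 3157, 1364 higher and 1793 lower, so that the share of rises among the calls was 43.2% in place of 50%. Without the third stressed array, the count was 3866. Without the third well-watered array it was 7555. The median difference over all probe sets was 0.02 as deposited, where 60.7% of the differences were positive, and 0.07 after rescaling. The median SE of a difference in the reported fit was 0.05.

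The 3 and 3 arrays did not overlap at 16549 probe sets (27.1% of those tested), of which 9731 were higher (15.9% of those tested) and 6818 lower (11.1%) under stress. After rescaling by spike-in controls the number was 10790, with 6998 higher and 3792 lower, and after quantile normalization 17596, with 9828 and 7768. Calls nearly all had this property, 6509 of 6541. The other 10040 separated probe sets did not pass the test.

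Among calls of at least 1 unit falls outnumbered rises, and among those of at least 2 units rises outnumbered falls. Calls of at least 1 unit numbered 1075, with 448 rises and 627 falls. At 2 units or more there were 136 rises and 117 falls, at 3 units or more 65 and 20, and at 4 units or more 25 and 3. Falls were also more numerous at 1 unit and rises at 3 units under quantile normalization (460 and 583 at 1 unit, 59 and 18 at 3 units) and after rescaling by spike-in controls (423 and 575, 58 and 13). The 65 rises of 3 units or more started at a median of -0.32, under the background limit, and the 20 falls of that size at a median of 3.31. Of all tested probe sets, 39385 had a well-watered mean not above the limit and 911 one over 3 above it. Whether these starting signals bear on the numbers of large rises and falls was not tested. Rises of 0.5 to 1 unit started at a median of 0.51 and falls of that size at 1.05.

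**Figure D1:**
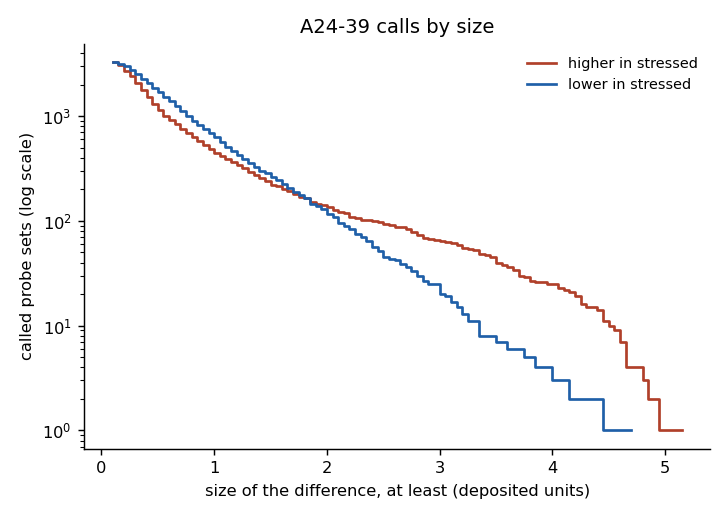
Number of called probe sets (log scale) whose difference between stressed and well-watered A24-39 roots has at least the size on the horizontal axis (deposited units), for rises and falls separately. Falls lie above rises at 1 unit (627 against 448), and rises lie above falls at 3 units (65 against 20).

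The share of probe sets called differed with the starting signal. Of the 39385 probe sets with a well-watered mean not above the background limit, 3.72% were called, 1117 higher and 350 lower. The share called was 15% for means up to 0.5 above the limit, 25.2% from 0.5 to 1, 31.3% from 1 to 2, 38.8% from 2 to 3 and 28.4% over 3. Rises and falls behaved differently along this axis. The share called higher went from 2.84% to 15.4% in the bin from 2 to 3 and was 8.12% among the 911 brightest probe sets. The share called lower went from 0.889% to 23.3% in the bin from 2 to 3 and was 20.3% among the brightest.

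The sizes of the calls also differed between the bins. The median called fall was -0.20 at or under the limit, -0.34 just above it, -0.71 from 1 to 2 and -1.10 over 3. The median called rise was 0.27, 0.37, 0.43 and 0.50 in the same bins. A signal near background cannot fall far, so the size of falls in the lowest bins is bounded by the scale. With the mean of all 6 A24-39 arrays as the level, falls and rises were closer in size, with medians of -0.43 and 0.33 just above the limit, -0.71 and 0.49 from 1 to 2, and -0.82 and 0.55 over 3. Replicate error was largest at the bright end, where the median SD was 0.20 in well-watered and 0.14 in stressed roots, against 0.05 and 0.03 at or under the limit.

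The starting level and the difference share the well-watered arrays, so an array error moves both. With the starting level taken from well-watered Y12-3 roots, whose arrays are not part of the difference, the shares called were 3.82%, 12.3%, 22%, 29.2%, 37.4% and 30.7% from the lowest to the highest bin. Calls lower by at least 1 unit then made up 15% of the highest bin, and calls higher by at least 1 unit 0.676%. This level is not fully independent of the calls. Same-numbered well-watered arrays of the genotypes deviated together (correlations of 0.24, 0.28 and 0.20), and the Y12-3 arrays share the fit's estimate of spread. With the mean of all 6 A24-39 arrays as the level, the excess of falls in the bright bins turned around. The bin from 2 to 3 then held 22.2% called higher and 16.2% called lower, and the highest bin 14.9% and 8.27%, so the direction in bright bins depends on which arrays set the level.

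**Figure D2:**
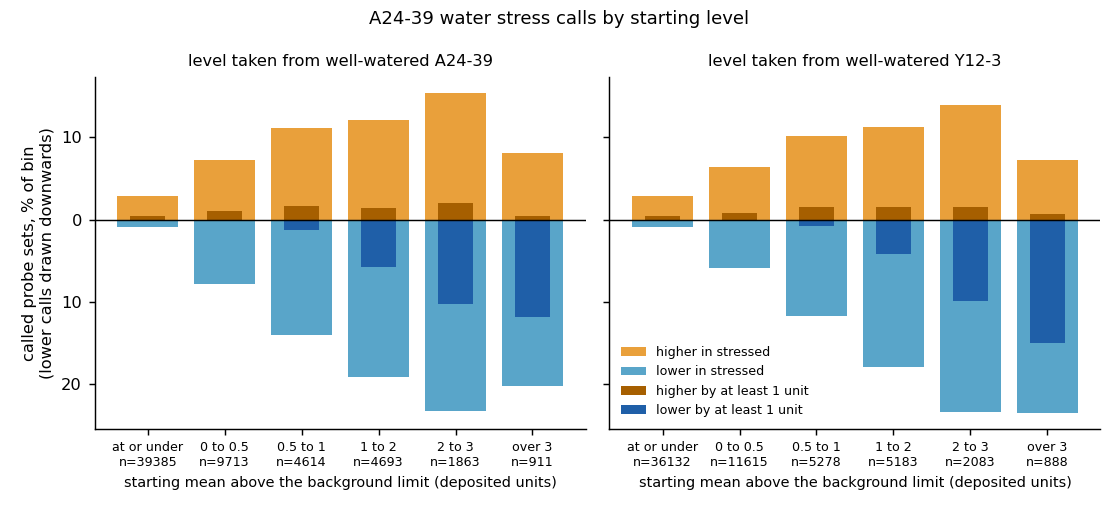
Share of probe sets called higher (upwards) or lower (downwards) in stressed A24-39 roots, in percent of each bin of starting signal above the background limit (deposited units). Narrow bars show calls of at least 1 unit, and n is the number of probe sets in a bin. With the level from A24-39 (left) or from Y12-3 (right), the share of falls in the bin from 2 to 3 was 23.3% and 23.4%.

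Calls were sorted by whether a probe set was detected in each group. A probe set above the limit on all 6 arrays was called raised in 1961 cases and lowered in 1939, together from 17684 such probe sets (22.1% called). A further 490 calls entered the detected range, being at or under the limit on all 3 well-watered and above it on all 3 stressed arrays. The reverse, leaving the detected range, was seen for 418, and for 653 without the third well-watered array. Another 508 rises and 653 falls were detected on some arrays of a group only. The remaining 309 rises and 263 falls stayed at or under the limit on all 6 arrays, and the largest of them measured 0.43 and -0.48. These class counts depended on 1 array and on the scaling. Without the third stressed array 1087 were raised and 1266 lowered while detected. After rescaling by spike-in controls 891 were raised, 1214 lowered and 289 entered. Crossing the limit alone was no call: of 889 probe sets that entered, 399 did not pass the test, and of 482 that left, 64 did not.

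**Figure D3:**
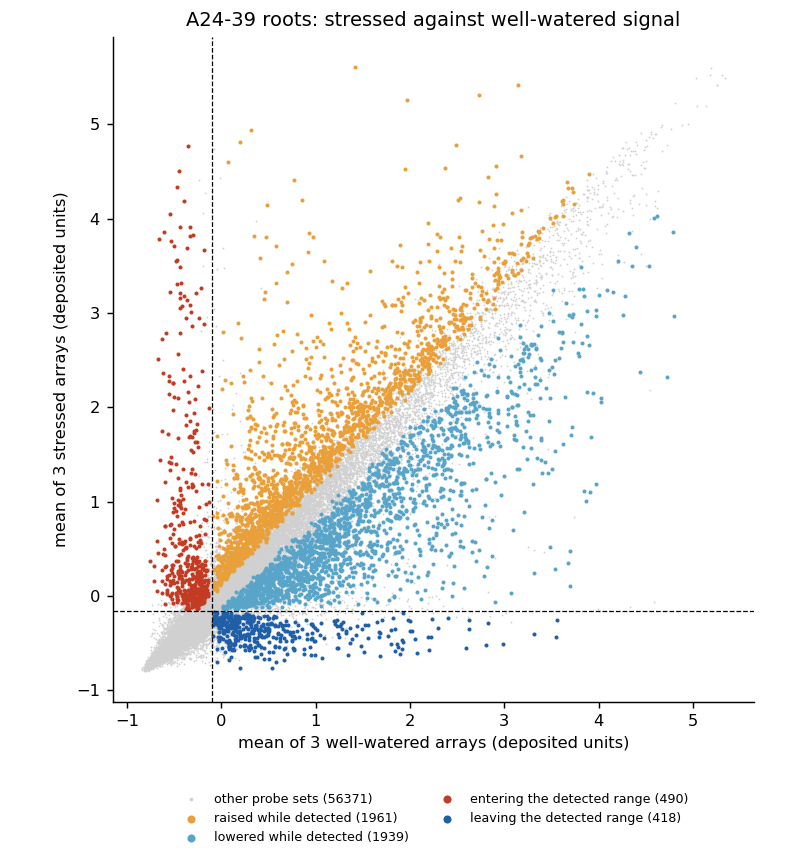
Mean signal of each probe set on the 3 stressed arrays against that on the 3 well-watered A24-39 arrays (deposited units), with broken lines at the mean background limits of the groups. Colours mark the 490 calls that entered, the 418 that left, the 1961 raised and the 1939 lowered while detected, and grey points are all others.

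The classes are defined by the change itself, so their sizes are given as a description. At least 1 unit of change was measured in 29.2% of the entering, 31.8% of the leaving, 12.2% of the raised and 18.8% of the lowered detected calls. Since a signal at background has no exact level, these differences are also given as bounds, the bright group's mean minus the background limit of the other group. The median bound was 0.31 for entering and -0.47 for leaving probe sets, and 116 and 91 of them moved by at least 1 unit as a bound. With the limit raised by 0.5, the raised and lowered detected calls numbered 1267 and 1073, so that calls detected on all 6 arrays were no longer the majority. With detection judged by group means, 751 calls left the detected range.

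Gene symbols were available for 1273 of the tested probe sets (771 symbols). Nearly all are placeholders that begin with LOC and come without a description, so no role is given for them. Of these 1273 probe sets 276 were called (21.7%, against 10.7% of all tested and 22.1% of those detected on all 6 arrays), 153 higher and 123 lower. Their median well-watered signal was 0.17, against -0.31 for all probe sets. The genes below were the 5 with the largest difference in each of the 4 classes, with 1 probe set per symbol. Their arrays do not overlap between groups by the rule that chose them.

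Among genes that entered the detected range, LOC542888 read -0.63, -0.40 and -0.60 in well-watered and 4.04, 3.84 and 4.27 in stressed roots. All well-watered arrays were under the limit and all stressed arrays far above it. It rose by 4.59 ± 0.12 (SE, limma adjusted p = 5.56e-08), or by at least 4.15 as a bound. If no scaling followed the logarithm, the bound amounts to a 63.5-fold change with base e or 17.8-fold with base 2. Its second probe set rose by 3.49.

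LOC542804 read -0.32, -0.58 and -0.55 in well-watered and 3.81, 3.02 and 3.83 in stressed roots, a rise of at least 3.66. LOC543084 read -0.41, -0.45 and -0.54 against 3.60, 3.22 and 3.87, a rise of at least 3.67. The second stressed array was the lowest of the 3 for both genes and also for LOC542888, while the well-watered arrays lay close together. LOC543293 and LOC543108 showed a wider spread under stress. The probe set of LOC543293 in this class read 3.01, 2.02 and 3.13 in stressed roots, a rise of at least 2.82 (limma adjusted p = 2.69e-05). LOC543108 read 1.65, 1.74 and 2.79, a rise of at least 2.16 (limma adjusted p = 0.003), and its other probe set differed by 0.03.

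The highest rises of all lay in the same class, at probe sets without a symbol. Ta.14617.1.S1_at read -0.41, -0.25 and -0.40 in well-watered and 4.67, 4.64 and 4.99 in stressed roots, a rise of at least 4.87. Ta.9389.1.S1_at read 4.43, 3.95 and 5.13 under stress, a rise of at least 4.60. Of the 4 probe sets designed from the same sequence cluster, Ta.9389, 3 rose, and the other differed by 0.03.

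**Figure D4:**
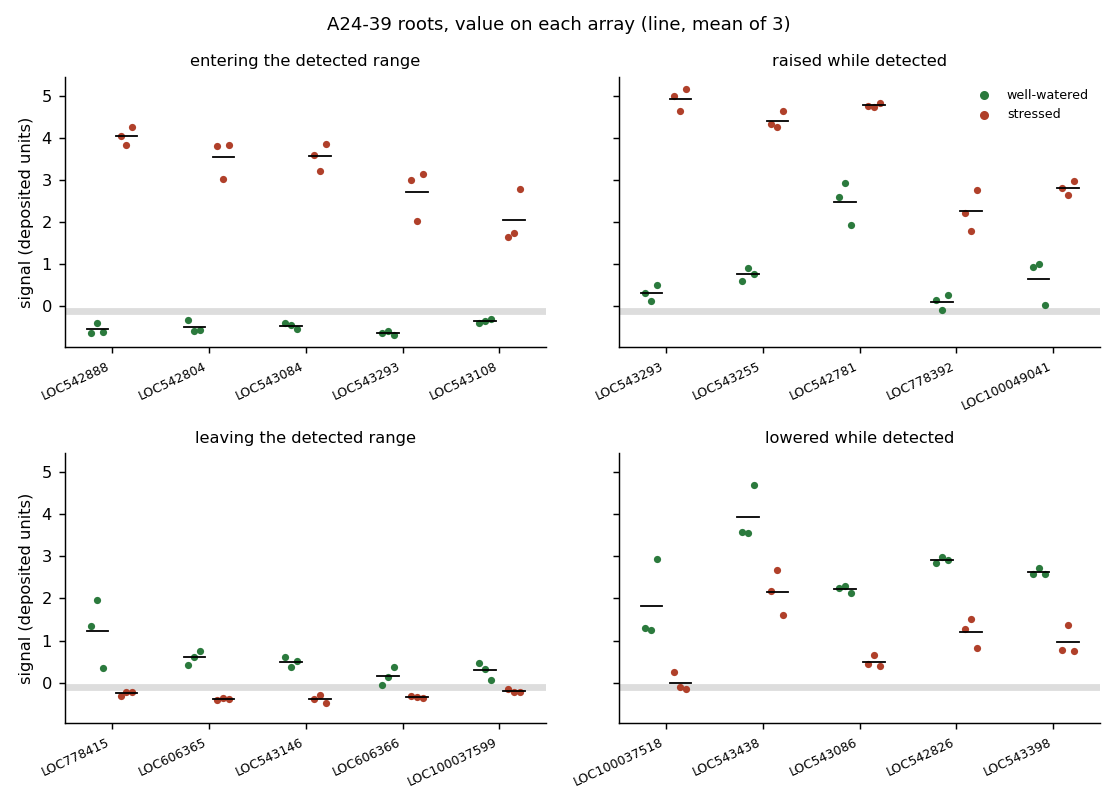
Signal on each A24-39 array (deposited units) of the 5 genes with the largest difference in each class, well-watered and stressed side by side, with a line at each mean of 3 arrays. The grey band spans the background limits of the 6 arrays, and LOC542888 lies under it on all well-watered arrays and at 3.84 or higher on the stressed ones.

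Genes raised while detected could be measured in both groups. LOC543293, on a probe set other than the one above, read 0.31, 0.12 and 0.51 in well-watered and 5.0, 4.65 and 5.15 in stressed roots. It rose by 4.62 ± 0.19 (SE, limma adjusted p = 4.92e-07), and all 3 of its probe sets rose, by 3.35 to 4.62. LOC543255 read 0.61, 0.92 and 0.77 against 4.34, 4.26 and 4.64, a rise of 3.65 ± 0.13 (SE). Both genes were detected on all 6 arrays, with no overlap of the groups.

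LOC542781 was the single one of these 5 genes with a high starting signal. It read 2.60, 2.93 and 1.93 in well-watered and 4.75, 4.75 and 4.83 in stressed roots, so the stressed arrays agreed within 0.05 (SD) while the well-watered ones spread by 0.51 (SD). LOC778392 rose from 0.10 ± 0.19 to 2.25 ± 0.48 (SD, n = 3) on the probe set chosen here, and 2 of its 3 probe sets rose. LOC100049041 read 0.93, 1.0 and 0.04 in well-watered and 2.80, 2.65 and 2.97 in stressed roots. The last of the well-watered values lay far under the other two, and the rise was 2.15 ± 0.25 (SE, limma adjusted p = 0.000315).

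Among the 5 genes with a symbol that left the detected range, LOC778415 read 1.35, 1.97 and 0.35 in well-watered and -0.32, -0.21 and -0.22 in stressed roots. The well-watered spread was wide (SD 0.82), and the fall of 1.47 ± 0.32 (SE, limma adjusted p = 0.0151) did not pass in the fit of the 6 A24-39 arrays alone (adjusted p = 0.0715). Of its 3 probe sets 1 fell. LOC606365 read 0.43, 0.61 and 0.76 against -0.41, -0.37 and -0.40, a difference of at least -0.76 as a bound, and both of its probe sets fell.

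LOC543146 read 0.61, 0.36 and 0.51 in well-watered and -0.39, -0.29 and -0.48 in stressed roots, with a bound of -0.65. LOC606366 on this probe set read -0.06, 0.14 and 0.38 against -0.33, -0.33 and -0.36, with a bound of -0.31. The first of its well-watered values lay just above the limit. All 4 probe sets of LOC606366 fell, by 0.50 to 1.98 units. LOC100037599 differed by -0.49 ± 0.08 (SE), and 1 of its 2 probe sets was called. After rescaling by spike-in controls, the calls of LOC606366 and LOC100037599 on these probe sets were lost (limma adjusted p = 0.0826 and 0.071).

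Genes lowered while detected started high. LOC543086 read 2.25, 2.31 and 2.12 in well-watered and 0.45, 0.65 and 0.39 in stressed roots, a difference of -1.73 ± 0.09 (SE, limma adjusted p = 1.69e-06). LOC542826 read 2.83, 2.98 and 2.91 against 1.28, 1.52 and 0.83. LOC543398 read 2.57, 2.72 and 2.58 against 0.77, 1.36 and 0.75. In these 3 genes the well-watered arrays agreed closely. The stressed arrays spread more widely for LOC542826 and LOC543398 (SD 0.35 for each). For LOC543086 the SD was 0.10 in well-watered and 0.13 in stressed roots.

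LOC100037518 and LOC543438 had larger mean differences and larger errors. LOC100037518 read 1.29, 1.25 and 2.94 in well-watered and 0.24, -0.11 and -0.16 in stressed roots. On the third well-watered array it lay far above the other two, and the difference amounted to -1.84 ± 0.39 (SE, limma adjusted p = 0.0122). LOC543438 read 3.58, 3.56 and 4.68 against 2.18, 2.67 and 1.60, a difference of -1.79 ± 0.37 (SE). Both calls were lost without the third stressed array (limma adjusted p = 0.052 and 0.0528).

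The deepest falls ran from the top of the scale to the limit and lay at probe sets without a symbol. Ta.5148.1.S1_a_at read 3.93, 4.56 and 5.27 in well-watered and 0.26, -0.17 and -0.28 in stressed roots. Its difference was -4.65 ± 0.37 (SE, limma adjusted p = 2.75e-05), and the first stressed array was the only one above the limit. Ta.9401.1.S1_a_at read 3.83, 4.15 and 5.0 against -0.03, -0.16 and -0.17. For both, the third well-watered array was the highest. All 3 probe sets of the cluster Ta.5148 fell, by 2.83 to 4.65 units, and so did all 5 of the cluster Ta.9401, by 2.19 to 4.44 units.

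The tested probe sets fall into 45705 clusters by the first number of their identifiers, and 8842 of these hold 2 or more probe sets. In 911 of them 2 or more probe sets were called, and in 441 of these all calls were higher and in 463 all were lower. Calls in both directions occurred in 7. Probe sets of a cluster can share target sequence, so these are not independent measurements. Identifiers that begin with TaAffx were called in 5.57% of cases and those that begin with Ta in 15.5%, and their shares detected on all well-watered arrays were 16% and 45.2%. Among probe sets detected on all 6 arrays, 15.1% and 24.3% were called.

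Of the 13 symbols that name a gene, 3 had a called probe set (COR410, THI1.1 and TUBA). That is 3 of their 19 probe sets (15.8%, against 10.7% of all tested). COR410, a cold-regulated dehydrin of wheat, read -0.34, -0.30 and -0.29 in well-watered and 0.17, 0.03 and 0.13 in stressed roots. It rose across the limit by 0.42 ± 0.06 (SE, limma adjusted p = 0.000803), or at least 0.21 as a bound, a call lost after rescaling by spike-in controls (adjusted p = 0.0818). It was the single matched member among dehydrins and late embryogenesis proteins. THI1.1, a thionin, which is a small antimicrobial peptide, fell on 1 of its 2 probe sets by 0.42 ± 0.12 (SE, limma adjusted p = 0.0487). That call was lost without any one of 5 of the 6 arrays, and the other probe set differed by -0.07. THI1.2, another thionin, differed by -0.04.

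GAPN, a glyceraldehyde-3-phosphate dehydrogenase of the cytosol that makes NADPH, read -0.03, -0.04 and 0.66 in well-watered and -0.45, -0.37 and -0.42 in stressed roots. Its difference of -0.61 ± 0.19 (SE, limma adjusted p = 0.0684) did not pass, and the third well-watered array lay well above the other two. Of the growth genes, alpha-tubulin (TUBA) fell by 0.29 ± 0.03 (SE, limma adjusted p = 0.000349) on a probe set near background, a call lost after rescaling by spike-in controls (adjusted p = 0.841). On a bright probe set, TUBA read 4.36, 4.36 and 4.71 against 4.65, 4.53 and 4.41, with overlapping groups. XTH, a xyloglucan endotransglucosylase of the cell wall, read -0.05, 0.25 and 0.12 against 0.90, 0.26 and 0.13, so that the first stressed array was high and the others lay at the well-watered level, with a difference of 0.32 ± 0.17 (SE).

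SAHH, which recycles S-adenosylhomocysteine after methylation reactions, was bright in both groups, at 4.47 ± 0.18 in well-watered and 4.60 ± 0.09 in stressed roots (SD, n = 3), a difference of 0.13 ± 0.17 (SE). TBP1, a TATA-binding protein, differed by 0.18 ± 0.07 (SE, limma adjusted p = 0.144). The probe sets of catalase (CAT1), phosphofructokinase (PFK) and TTHV lay under the limit on all 6 arrays, so no response could be measured for them. The leaf markers FBP, a fructose bisphosphatase, and petC, the Rieske protein of photosynthesis, were at or under the limit on all arrays, apart from 1 FBP probe set on the third stressed array (-0.06). No symbol of a root marker was available to check the tissue.

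Control probe sets that the array carries for wheat genes were added to the same fit, a choice made after seeing the data. Of 25 such probe sets, 15 were detected on all 6 arrays and 3 passed (12%, against 10.7% of all tested). All 3 were lower, and 2 of them belong to sucrose synthase. Sucrose synthase at its 3′ probe set read 4.13, 4.34 and 4.63 in well-watered and 3.31, 3.34 and 3.19 in stressed roots, a difference of -1.09 ± 0.12 (SE, limma adjusted p = 0.000218). Its middle probe set differed by -1.28 ± 0.21 and its 5′ probe set by -0.69 ± 0.22 (SE, limma adjusted p = 0.00312 and 0.0833). Beside these, the dap spike-in differed in its 3′ minus 5′ signal between the groups as given above.

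The 18S ribosomal RNA probe set was 0.94 ± 0.17 in well-watered and 0.31 ± 0.17 in stressed roots (SD, n = 3; limma adjusted p = 0.0267). Glucose-6-phosphate dehydrogenase, which opens the oxidative pentose phosphate pathway, read 2.46, 2.61 and 2.05 against 1.90, 2.02 and 2.02 at its 3′ probe set, and the difference of -0.40 ± 0.13 did not pass (SE, limma adjusted p = 0.0768). Ubiquitin did not pass the test, with differences of -0.10 ± 0.09, -0.03 ± 0.13 and 0.06 ± 0.09 (SE) at its 3′, middle and 5′ probe sets.

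The response of A24-39 was set against that of Y12-3 through the interaction, the A24-39 minus the Y12-3 response, which limma called at 52 probe sets (0.085% of those tested). Of these, 19 had a higher (0.0311% of those tested) and 33 a lower response in A24-39 (0.0539%). Among the 6541 A24-39 calls, 39 passed the interaction test, and these counts share the A24-39 arrays. These 39 are 0.596% of the A24-39 calls. They included 18 of the 418 calls leaving the detected range and 8 of the 490 entering it. Of the 1961 raised and the 1939 lowered detected calls, 3 and 2 were among them. Of the 490 entering calls 88.0%, and of the 418 leaving calls 88.8%, were also called in the same direction in Y12-3. There 19.2% of all probe sets were called in either direction. The share was 84.5% for the raised and 77.4% for the lowered detected calls, and 49.8% for rises that stayed under the limit. Of all 6541 A24-39 calls, 5207 were called in the same direction in Y12-3 and 5 in the opposite one. The number 52 depended on single arrays: it was 625 without the third well-watered Y12-3 array and 141 without the third well-watered A24-39 array, 64 without the second, and 23 to 34 without any one of the other 9 arrays. Lower responses were not the majority in every setting: 10 were lower and 21 higher without the second well-watered Y12-3 array, and 19 lower and 31 higher with the dap covariate. Same-numbered arrays of the genotypes deviated together within each watering, which the fit behind the 52 leaves out. With that replicate number as a block limma called 154, 64 higher and 90 lower, and 36 were shared with the 52.

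The highest interaction was that of Ta.6081.1.S1_a_at. In A24-39 it read -0.27, -0.36 and -0.47 in well-watered and 3.94, 3.24 and 3.88 in stressed roots, a rise of at least 3.79, while Y12-3 read -0.65, -0.58 and -0.71 in well-watered and -0.28, -0.48 and 0.10 in stressed roots. The third stressed Y12-3 array alone lay above the limit there. Its interaction of 3.63 ± 0.26 (SE, limma adjusted p = 0.000432) passed without any one of the 12 arrays. Ta.5252.1.S1_at stayed under the limit on all A24-39 arrays and differed by 0.03, against a fall of 2.89 in Y12-3. Ta.23066.2.S1_s_at read 1.44, 1.46 and 2.15 in well-watered and -0.66, -0.61 and -0.64 in stressed A24-39 roots, and both Y12-3 means were under the limit. Ta.18925.1.A1_at fell from 1.69 ± 0.20 to -0.14 ± 0.05 (SD, n = 3) in A24-39. Where a genotype was under the limit in both waterings, its response was not measured, and whether the probes match both genotypes equally well was not tested.

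With a symbol, LOC543146 and LOC100037642 passed. LOC543146 differed by -0.88 ± 0.06 in A24-39 and by -0.20 ± 0.06 in Y12-3 (SE), where both means were under the limit. The interaction of -0.68 ± 0.09 (SE, limma adjusted p = 0.0253) passed in 5 of the 12 fits that leave out 1 array. LOC100037642 read -0.24, -0.20 and -0.29 in well-watered and -0.01, 0.04 and 0.03 in stressed A24-39 roots, and it rose by 0.79 in Y12-3. Its interaction of -0.52 ± 0.06 (SE, limma adjusted p = 0.0101) passed in all 12 such fits. The other probe set of LOC100037642 lay under the limit on all arrays and differed by 0.009 in A24-39 and 0.005 in Y12-3.

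**Figure D5:**
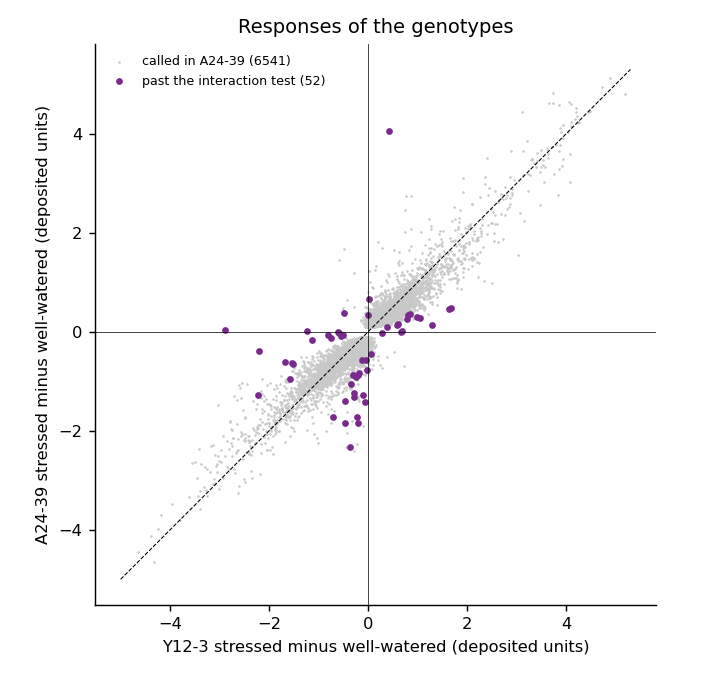
Response to water stress in A24-39 against that in Y12-3 (deposited units) for the 6541 probe sets called in A24-39 (grey) and the 52 past the interaction test (purple), with a broken line where both are equal. Ta.6081.1.S1_a_at stands alone near the top, where A24-39 rose by 4.05 and Y12-3 differed by 0.43.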

How the data were processed

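For each of 61290 probe sets, the authors deposited a score on each of 12 arrays. RMA, a background correction, normalization and summary method, is the one tool named, with no version, per the submitters' processing notes. No source used here gives the logarithm's base, the centring or the scaling, and the number of arrays limits the precision. The values were used as deposited. A fit of 4 group means with limma 3.58.1 in R 4.3.3 (lmFit, eBayes, 8 residual degrees of freedom) left out 111 control probe sets and adjusted over the other 61179 with Benjamini-Hochberg. The design had assumed log values, and the score was treated as such. The fit was run on simulated data with independent errors for each array, which does not cover arrays that deviate together.

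Symbols come from the array's annotation, and 0 of their identifiers were found in RefSeq's WEW_v2.1. Named genes were the up to 5 largest differences per class with a symbol and no overlap, the 2 highest and 2 lowest without a symbol, all symbols that name a gene, and for the interaction those with a symbol and the 2 highest and 2 lowest without. Lists, rules and alternatives were chosen with earlier results of these data known. Same-numbered well-watered and stressed A24-39 arrays were not paired (correlations of deviations -0.04, 0.13 and 0.03). Those of the genotypes deviated together within a watering (0.17 to 0.57). The reported fit has no block for this, and such pairs entered only alternative fits. Alternatives covered the arrays fitted, variance prior, weights, filter, scaling, block, covariate and background limit.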

Additional observations from a re-analysis of the deposited data

Results flagged for a closer look

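The responses of the genotypes differed by the interaction test of limma at 52 probe sets. Those with a symbol were LOC543146 (-0.68, A24-39 minus Y12-3 response) and LOC100037642 (-0.52), on Ta.20771.1.S1_at and Ta.280.2.S1_x_at. Without a symbol, the highest were Ta.6081.1.S1_a_at (3.63) and Ta.5252.1.S1_at (2.92), and the lowest were Ta.23066.2.S1_s_at (-1.95) and Ta.18925.1.A1_at (-1.64). Of the 52, 4 were detected on all arrays of both genotypes, so for most the size is not exact. Single outlying arrays were not looked for by a test in groups of 3.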

How the results depend on the processing

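Every probe set called both in the reported fit and in another setting kept its direction, but the counts moved. Being called in both fits leaves little room for a change of direction. With the 6 arrays alone or the replicate block the differences are the same numbers, so none was possible. Of the 6541 calls, 45% were kept after rescaling by spike-in controls and 58.3% on omitting stressed A24-39 array 3. The dap covariate kept 68.7%, the 6 arrays alone 69.6%, array weights 99.1% and a random replicate block 99.7%. Array weights gave 10843 calls (5618 higher, 5225 lower), 3088 of them lowered while detected. Rescaling by spike-in controls gave 3157 calls (1364 higher, 1793 lower), with 289 entering the detected range, 891 raised and 1214 lowered while detected. The 6 arrays alone gave 5016, an intensity trend 6418, quantile normalization 7797 and a filter on dim probe sets 6514. The replicate number as a block, which is not a pairing here, gave 7325, and as a random block 6587. Without the third well-watered array of each genotype, a setting chosen after seeing the data, 9795 were called, 5059 lower, with 769 leaving and 3096 lowered while detected.

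Leaving out 1 array at a time gave 3866 to 7588 calls, 1852 to 3815 higher and 2014 to 4026 lower, with 386 to 532 entering, 366 to 653 leaving, 1087 to 2232 raised and 1266 to 2541 lowered while detected. Calls of at least 1 unit numbered 888 to 1125. Each of these lowest counts came without the third stressed A24-39 array. With the background limit raised by 0.5, 1267 were raised and 1073 lowered while detected, and detection by group means gave 751 leaving.

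The interaction moved most. It was called at 134 probe sets with an intensity trend (58 higher, 76 lower), 865 with array weights (213 and 652), 115 after rescaling (48 and 67), 154 with the replicate block within watering (64 and 90, 36 shared with the 52) and 1765 without the third well-watered array of each genotype (366 and 1399). The dap covariate gave 31 higher and 19 lower. Leaving out 1 array gave 23 to 625, with 10 to 101 higher and 10 to 524 lower. The cause of these movements was not tested.

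Of 387 values of named probe sets under other settings, 367 kept their side of the threshold, 18 lost the call and 2 gained it. Among the calls 0 reversed, and none could where a setting leaves the differences unchanged. Differences that were not called count as kept even where their sign changed. The bright TUBA probe set, for example, differed by 0.05 in the reported fit and by -0.03 after rescaling by spike-in controls. GAPN passed with the replicate block and after rescaling (limma adjusted p = 0.0299 and 0.0483).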

Other observations

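Among the 292 placeholder symbols with 2 or more probe sets, 27 had all of them called, 67 some of them, and 1 had calls in both directions.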
